A study of Mus musculus with 6 samples.

Results

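Chemokines are small secreted or membrane-bound proteins that guide cells through G protein-coupled receptors. The genes described here are those of the fractalkine and CXCL12 systems: the ligands Cx3cl1, Cxcl12 and Cxcl14, the receptors Cx3cr1, Cxcr4 and Cxcr7, and the proteases Adam10 and Adam17, measured in the prefrontal cortex of BTBR and C57BL/6J mice. All non-control probes carrying a member's gene name in the 6 array files were taken. That gave 12 probes of 7 genes. Cxcr7 was found under its current symbol Ackr3, through a RefSeq synonym, with 1 probe. The 13 probes stood among 41174 non-control probes on the array, of which 30011 entered the test, all 13 included. The 8 genes stood among 21156 genes named on the array, and 5 of them had 2 probes each while 3 had 1.

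The BTBR group held 3 males of genotype BTBR T+ Itpr3tf/J, inbred mice that lack a corpus callosum, show little social approach and serve as an autism model. The C57BL/6J group held 3 wild-type males of that strain, the common inbred laboratory strain. All 6 mice were 5 months old and untreated, and RNA of the whole prefrontal cortex was labelled with Cy3 and hybridised to 1 Agilent array per mouse. The field for strain background reads C57BL/6J for the BTBR mice as well, so the groups rest on titles and genotypes.

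Fractalkine, the product of Cx3cl1, is made mainly by neurons in brain and stays anchored to the membrane by a mucin-like stalk until proteases release it. Its receptor CX3CR1 is carried in brain parenchyma mainly by microglia, and the pair is known for signalling from neurons to microglia. CXCL12 acts through CXCR4, which couples to Gi proteins, while CXCR7 binds the same ligand and takes it up without classical G protein signalling. This system is known for guiding migrating interneurons and for retaining leukocytes in bone marrow.

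Levels are log2 processed signals relative to the 75th percentile of each array, and differences are BTBR minus C57BL/6J on the same scale, with the standard error (SE) of the fit. That percentile ranged from 859 to 1607 signal units, and each array measured 28100 to 30665 probes (68.2% to 74.5%) well above background. All 15 neuron, 10 astrocyte, 12 oligodendrocyte and 26 microglia marker genes were well above background on all 6 arrays. The arrays lay on 2 slides, with replicates 1 and 2 of each strain on the first and replicate 3 of each on the second. Because whole tissue was measured, fewer cells of a type and less RNA per cell cannot be told apart.

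Between the strains, 3 of the 13 probes passed the test, 1 each for Cx3cr1, Cxcr4 and Adam10, and all 3 were higher in BTBR (limma, Benjamini-Hochberg adjusted p under 0.05 over all 30011 probes). That is 23.1% of the member probes, where 5.44% of all probes passed, 2.19% of all probes being higher and 3.25% lower. Since the members were chosen with earlier results of these data known, the shares are a description only. The Cxcr4 probe among the 3 was well above background on 3 BTBR arrays but on only 1 C57BL/6J array. It therefore met the filter through the strain in which it was higher. Among probes well above background on all 6 arrays, 2 of 11 member probes passed, against 1350 of 27342 probes. No member probe was lower past the test. For 5 member probes the arrays of the strains did not overlap, 4 higher and 1 lower in BTBR, whereas over all probes non-overlap held for 22.8%, with 11.9% higher and 11% lower. The difference was positive for 11 member probes and negative for 2, and its median was 0.27, against 0.04 over all probes. Leaving out BTBR 1 left 1 member probe past the test, that of Cx3cr1, and normexp background correction left 0.

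**Figure D1:**
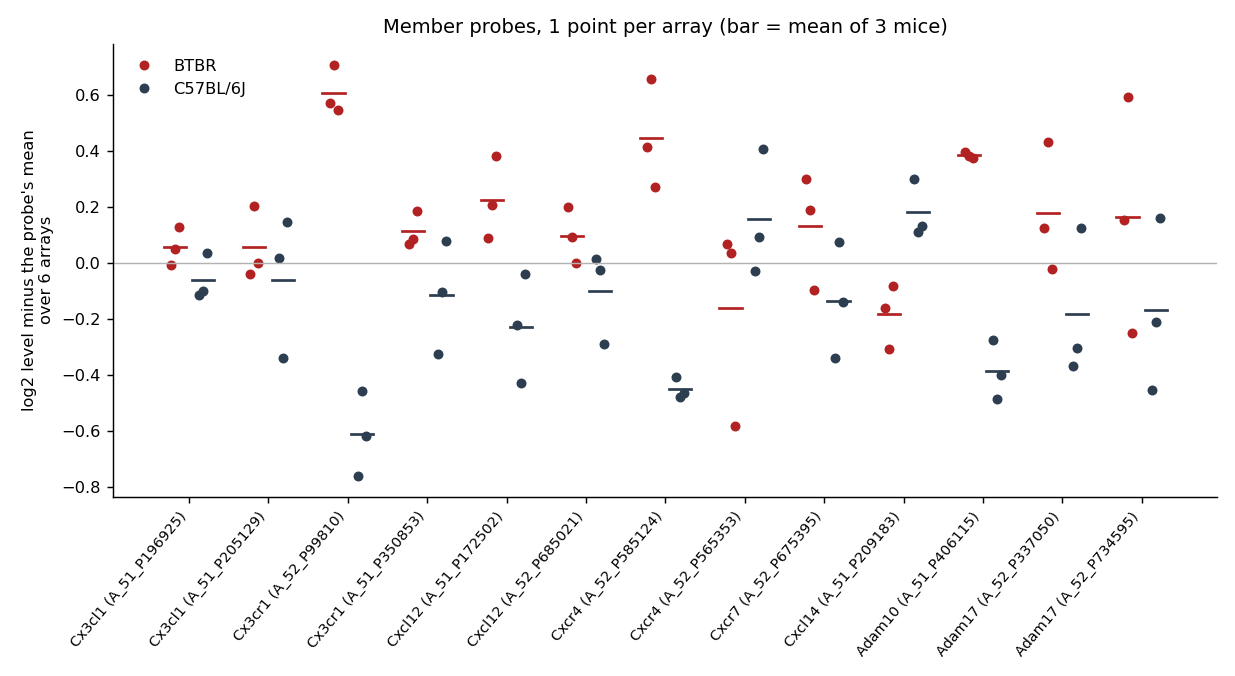
Log2 level of each member probe on each array, shown as the deviation from that probe's mean over the 6 arrays, with BTBR points left of C57BL/6J points and a bar for the mean of 3 mice. The points of the strains part for Cx3cr1 A_52_P99810, Cxcr4 A_52_P585124 and Adam10, and lie on separate sides with narrower gaps for Cxcl12 A_51_P172502 and Cxcl14.

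Cx3cl1, the ligand, differed little between the strains. Probe A_51_P196925 (mm9 chr8:97306185-97306244, plus strand, from base 3001 of its transcript record) read 6.14, 6.20 and 6.28 in BTBR, against 6.03, 6.05 and 6.18 in C57BL/6J. The strains overlapped, since the lowest BTBR array lay below the highest C57BL/6J array. The difference was 0.12 ± 0.10 (SE), with a 95% interval of -0.13 to 0.37 (limma adjusted p = 0.676). Probe A_51_P205129 (chr8:97296742-97296801, from base 638 of another Cx3cl1 transcript record) read -2.02, -1.78 and -1.98 in BTBR, against -1.97, -2.32 and -1.84 in C57BL/6J. Its difference of 0.12 ± 0.16 (interval -0.27 to 0.50, limma adjusted p = 0.807) came with overlapping arrays as well. The slides gave opposite signs for this probe, 0.245 on the first and -0.145 on the second. The probes lie 9443 bases apart on the chromosome, and their strain differences were 0.00 ± 0.15 apart (interval -0.35 to 0.35).

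Cx3cr1, the receptor for fractalkine, was higher in BTBR by one of its probes. Probe A_52_P99810 (chr9:119959018-119959077, minus strand, from base 2476 of the transcript record) read 2.32, 2.46 and 2.29 in BTBR, against 0.99, 1.29 and 1.13 in C57BL/6J. Every BTBR array lay above every C57BL/6J array, and the nearest pair stood 1.0 apart. The group means were 2.36 ± 0.09 in BTBR and 1.14 ± 0.15 in C57BL/6J (SD, n = 3 each), and the difference of 1.22 ± 0.12 (SE) is a 2.33-fold higher signal, with a 95% interval of 1.90 to 2.85 (limma adjusted p = 0.00263). Within slides the difference was 1.25 on the first and 1.16 on the second. It was the only member probe that passed whichever single mouse was left out (1.15 to 1.30, adjusted p from 0.00979 to 0.0193). With normexp background correction its size was nearly the same, 1.18, but the adjusted p was 0.0616.

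The other Cx3cr1 probe did not give this difference. Probe A_51_P350853 (chr9:119960610-119960669, from base 884, 1592 bases upstream of the first in the transcript) read -3.68, -3.67 and -3.57 in BTBR, against -4.08, -3.85 and -3.67 in C57BL/6J. This probe is much the dimmer, with processed signals of 67.6 to 99.8 units before scaling, against 2647 to 5806 units for A_52_P99810. Both probes were well above background on every array. The lowest BTBR array lay just below the highest C57BL/6J array, and the difference was 0.23 ± 0.13 (interval -0.09 to 0.55, adjusted p = 0.479). The gap between the probes on one array, which removes the brightness of the array as a whole, was 6.00, 6.13 and 5.86 in BTBR, against 5.06, 5.15 and 4.80 in C57BL/6J. The strains did not overlap in this gap either. Its strain difference was 0.99 ± 0.14 (interval 0.67 to 1.32, limma adjusted p = 0.00726 over 10466 pairs of probes of one gene), so the probes gave unequal strain differences. Of all such pairs, 5.9% passed, and of the 5 member pairs 2 did, the other being the Cxcr4 pair, which rests on a probe not well above background on any BTBR array. With normexp background correction the difference between the Cx3cr1 probes was 1.44, with a limma adjusted p of 0.489. In that setting A_51_P350853 read -1.85 on C57BL/6J 1, against -3.15 and -3.09 on the other C57BL/6J arrays. It read -3.03, -2.72 and -3.13 in BTBR.

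The Cx3cr1 sequences are shown because the probes disagree and sample different stretches of the transcript. They are printed 5′ to 3′ as the files give them, the first 30 of 60 bases for A_52_P99810 and all 60 for A_51_P350853. Exon and UTR annotation of mm9 was not used here, and whether BTBR mice carry the same bases at the probes was not analysed here.
Cx3cr1 A_52_P99810: caagaatgtcttcatgcattcactgactcc
Cx3cr1 A_51_P350853: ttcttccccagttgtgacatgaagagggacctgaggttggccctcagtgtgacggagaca

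**Figure D2:**
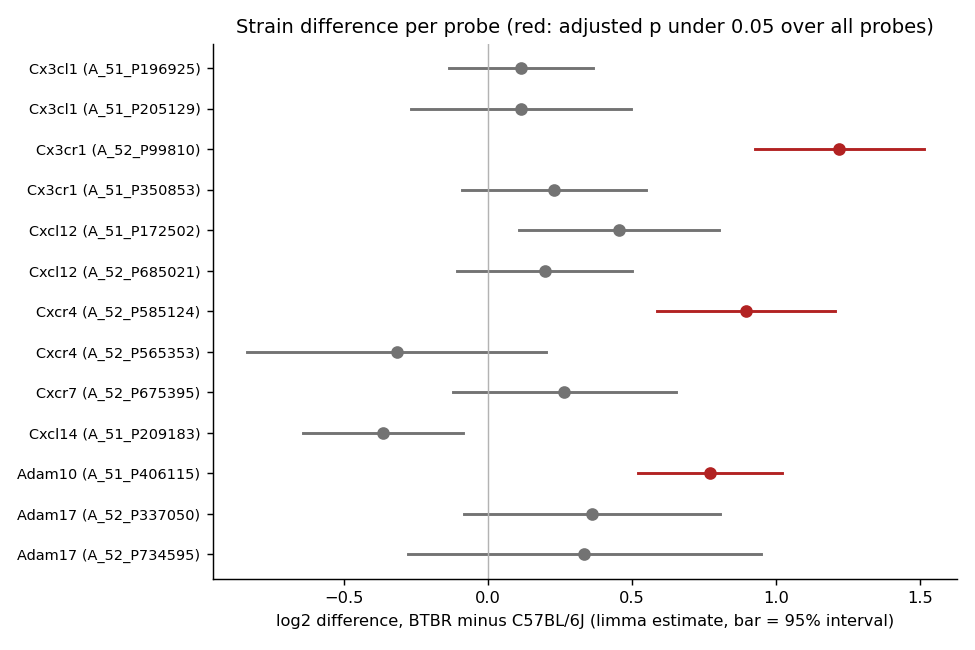
Difference in log2 level between BTBR and C57BL/6J for each member probe, as the limma estimate with its 95% interval, and red where the adjusted p over all probes is under 0.05. The interval of Cx3cr1 A_52_P99810 (0.93 to 1.51) does not reach that of Cx3cr1 A_51_P350853 (-0.09 to 0.55). Both Cxcr4 probes were measured near background, so the opposite signs of their estimates are not read as a result.

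Other markers of microglia, the main carriers of CX3CR1 in brain parenchyma, were measured beside it. Of 26 microglia marker genes, 0 passed the test upward and 5 passed it downward, and their median difference was -0.21, against 0.01 over all 16548 genes taken by their brightest probe, of which 2.03% were higher and 3.26% lower (5.29% in all). Their median was -0.08 on the first slide and -0.37 on the second. Ptprc, the leukocyte phosphatase CD45, was lower by 1.39 on the log2 scale, a 2.61-fold difference (-1.39 ± 0.21 SE, adjusted p = 0.0153), while its other probe gave -0.43 and did not pass (adjusted p = 0.272). The complement genes C1qb (-1.11 ± 0.15, adjusted p = 0.00878) and C1qc (-0.63 ± 0.12, adjusted p = 0.0346) were lower too. C1qa, of the same complex and named here after its values were seen, differed by -0.10 and did not pass (limma adjusted p = 0.815). Trem2, a lipid-sensing microglial receptor named here after its values were seen, differed by -0.65 (adjusted p = 0.0421), and its other probe by -0.67 (adjusted p = 0.0453). For Fcrls, an Fc receptor-like protein of microglia, the brightest probe was lower by 2.22-fold (-1.15 ± 0.14, adjusted p = 0.00573), while its other probe was higher by 1.55 (adjusted p = 0.00198).

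Of the 26 microglia markers, 19 had negative and 7 positive differences. Among the 7 were P2ry12 (0.12), Tmem119 (0.03) and Csf1r (0.01), named after their values were seen and not past the test. The signal summed over the 26 markers, in units of each array's 75th percentile, was 82.9 to 96.3 in BTBR, against 102 to 123 in C57BL/6J. These sums did not overlap. The 5 lower calls became 0 with normexp background correction, 2 to 4 when 1 mouse was left out and 1 when BTBR 2 and C57BL/6J 3 were both left out. Monocytes and other leukocytes can also carry CX3CR1. Of 15 tested markers of other leukocytes 0 passed in either direction, where 5.29% of all genes passed. The median of these markers was 0.09, with sums of 16.2 to 32.9 in BTBR, against 14.1 to 19.7 in C57BL/6J. Their smallest p-values were those of Itgax, a dendritic cell integrin (-1.36, limma adjusted p = 0.0994, other probe -0.29), and Cd79a of B cells (0.28, adjusted p = 0.382). Itgax was well above background on only 3 of 6 arrays, so its size is uncertain. It read -6.27, -5.43 and -6.77 in BTBR, against -4.93, -5.06 and -4.40 in C57BL/6J. The part of microglia and other leukocytes in the Cx3cr1 result was not tested.

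**Figure D3:**
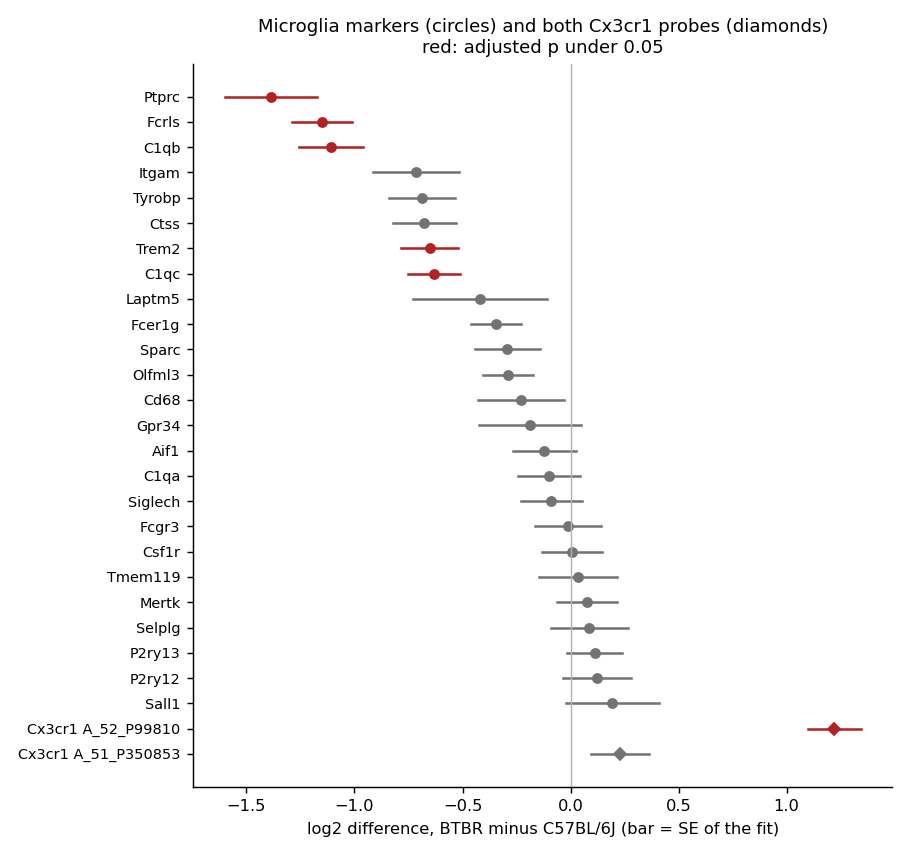
Difference in log2 level between BTBR and C57BL/6J for 25 of the 26 microglia marker genes by their brightest probe (circles) and for both Cx3cr1 probes (diamonds), with the SE of the fit as a bar and red for an adjusted p under 0.05. The 5 red markers lie below 0, between -1.39 and -0.63, and Cx3cr1 A_52_P99810 lies at 1.22, above every marker drawn. The other probe of Fcrls, which is not drawn, gave 1.55.

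Cxcl12, the ligand of CXCR4 and CXCR7, did not pass the test with either probe. Probe A_51_P172502 (chr6:117131227-117131286, plus strand, from base 5510) read 3.83, 3.95 and 4.13 in BTBR, against 3.52, 3.32 and 3.71 in C57BL/6J. The strains did not overlap, although the gap between the nearest arrays was only 0.13. The difference was 0.46 ± 0.14 (interval 0.11 to 0.80, unadjusted p = 0.0175, limma adjusted p = 0.166), and it was 0.47 on the first slide and 0.42 on the second. Array weights alone among the alternatives brought it past the threshold (adjusted p = 0.0423). Probe A_52_P685021 (chr6:117124474-117124533, from base 1264 of another Cxcl12 transcript record) read -1.87, -1.98 and -2.07 in BTBR, against -2.06, -2.10 and -2.36 in C57BL/6J. These arrays overlapped at the edge, and the difference was 0.20 ± 0.13 (interval -0.11 to 0.50, adjusted p = 0.535). The strain differences of the probes were 0.26 ± 0.21 apart (interval -0.24 to 0.76, adjusted p = 0.706).

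Endothelial cells, pericytes and meningeal fibroblasts are known sources of CXCL12. Of 16 endothelial and pericyte markers 0 passed the test, where 5.29% of all genes passed. The median of these markers was -0.11, with summed signals of 50.2 to 53.8 in BTBR, against 51.5 to 56.9 in C57BL/6J. Of 17 meningeal fibroblast markers 0 passed, with a median of -0.12 and sums of 21.8 to 28.0 in BTBR, against 22.8 to 30.3 in C57BL/6J. Both sets of sums overlapped between the strains, and the part of these cells in the Cxcl12 values was not tested. Their smallest p-values belonged to Kcnj8, a pericyte potassium channel (-0.39, adjusted p = 0.124, other probe -0.37), and Cdh5, the endothelial cadherin (-0.36, adjusted p = 0.183, other probe -0.26), and to the matrix genes Col1a1 (-0.72, adjusted p = 0.0999, other probe -0.39) and Dcn (-0.32, adjusted p = 0.235).

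Cxcl14, a ligand expressed by subsets of cortical interneurons, was the only member whose arrays lay wholly lower in BTBR. Probe A_51_P209183 (chr13:56390078-56390137, minus strand, from base 1693) read 4.60, 4.45 and 4.67 in BTBR, against 5.06, 4.87 and 4.89 in C57BL/6J. The nearest arrays were 0.19 apart. The difference was -0.36 ± 0.12 (interval -0.64 to -0.09, unadjusted p = 0.0178), and it did not pass the test over all probes (limma adjusted p = 0.168). It was -0.44 on the first slide and -0.22 on the second. Of 16 interneuron markers, 1 was higher and 0 were lower past the test (6.25% called, against 5.29% of all genes). The median of these markers was 0.20, and it was -0.05 on the first slide and 0.51 on the second. Their summed signals were 212 to 246 in BTBR, against 151 to 240 in C57BL/6J. The 1 was Adarb2, an RNA-editing family gene of caudal interneurons (1.09 ± 0.16, adjusted p = 0.0113), whose other probes gave -0.82 and 1.15.

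Cxcr4, the signalling receptor of CXCL12, was measured near background by both probes, of which 1 passed the test. Probe A_52_P585124 (chr1:130485079-130485138, minus strand, from base 1451) read -5.62, -5.38 and -5.76 in BTBR, against -6.44, -6.51 and -6.50 in C57BL/6J. It was well above background on all 3 BTBR arrays and on 1 of 3 C57BL/6J arrays, and the strains did not overlap. The means were -5.59 ± 0.19 in BTBR and -6.48 ± 0.04 in C57BL/6J (SD, n = 3 each), and the fit gave a difference of 0.90 ± 0.13 (interval 0.59 to 1.21, limma adjusted p = 0.0115), an estimate of 1.86-fold. With 2 of 3 C57BL/6J arrays not well above background, the size of this difference is uncertain. It was 0.98 on the first slide and 0.74 on the second. Before scaling, the processed signals were 18.7, 20.7 and 21.8 units in BTBR, against 18.5, 13.6 and 13.4 units in C57BL/6J, so the lowest BTBR array and the highest C57BL/6J array were nearly level.

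The Cxcr4 call did not hold under several settings. With normexp background correction the difference was -0.21 (adjusted p = 0.962), where C57BL/6J 1 read -1.98 against -3.87 and -4.17 on the other C57BL/6J arrays and -3.54, -3.05 and -4.05 in BTBR. That setting also added an offset of 50 units to every spot, more than the processed signals of this probe. In the authors' log2 values the difference was 0.06 (adjusted p = 0.587). There the probe read 8.37, 8.38 and 8.31 in BTBR, against 8.31, 8.30 and 8.25 in C57BL/6J. The array medians were 8.82 to 8.83, and strain differences run smaller in those values, so the sizes are not on a like scale. Leaving out BTBR 1 (adjusted p = 0.0593) or C57BL/6J 2 (adjusted p = 0.0597) also ended the call, with sizes of 0.91 and 0.88.

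The second Cxcr4 probe did not show the higher signal. Probe A_52_P565353 (chr1:130485659-130485718, from base 871, 580 bases upstream in the transcript) read -6.38, -6.41 and -7.03 in BTBR, against -6.47, -6.35 and -6.03 in C57BL/6J. It was not well above background on any of 3 BTBR arrays and was on all 3 C57BL/6J arrays. The measured means were -6.60 in BTBR and -6.29 in C57BL/6J, the arrays overlapped, and the difference did not pass (limma adjusted p = 0.563), so no direction is read from it. It was 0.02 on the first slide and -0.99 on the second. Since BTBR has no reading well above background here, no size is given for the difference between the Cxcr4 probes. Their pair is only counted among the member pairs past the test.

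The Cxcr4 sequences are shown because only one of the probes carries the call. Of A_52_P585124 the last 30 of 60 bases are given, with capitals for an AATAAA hexamer, the most common polyadenylation signal. Read as printed on the array, AATAAA occurs in 4.78% of the 41174 probes and its reverse complement TTTATT in 4.25%, and the match is a description only. All 60 bases are given for A_52_P565353.
Cxcr4 A_52_P585124: gtaaattgAATAAAgctagccgtgatcctc
Cxcr4 A_52_P565353: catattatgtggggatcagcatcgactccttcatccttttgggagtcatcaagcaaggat

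Cxcr7, the scavenging receptor of CXCL12, did not pass the test. Probe A_52_P675395 (chr1:92111803-92111862, plus strand, from base 1541) read 0.08, -0.03 and -0.32 in BTBR, against -0.56, -0.14 and -0.36 in C57BL/6J. The arrays overlapped, and the difference was 0.27 ± 0.16 (interval -0.12 to 0.65, limma adjusted p = 0.502). It was 0.38 on the first slide and 0.04 on the second.

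Adam10, the protease that sheds fractalkine from resting cells, was higher in BTBR by its single probe. A_51_P406115 (chr9:70625964-70626022, plus strand, 59 aligned bases) read -2.52, -2.53 and -2.54 in BTBR, against -3.19, -3.40 and -3.32 in C57BL/6J. The BTBR arrays were nearly identical and all lay above the C57BL/6J arrays, with a gap of 0.65. The means were -2.53 ± 0.01 in BTBR and -3.30 ± 0.10 in C57BL/6J (SD, n = 3 each). The difference of 0.77 ± 0.10 (interval 0.52 to 1.02) is a 1.71-fold higher signal (limma adjusted p = 0.00906), and it was 0.77 on the first slide and 0.78 on the second. The first 30 of the probe's 60 bases, 5′ to 3′, are shown because no other Adam10 probe could be set beside it.
Adam10 A_51_P406115: cctgttaagtcatcatctgcaaatgatacc

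The Adam10 call did not hold under every setting. Before scaling, the processed signals overlapped, at 160, 148 and 203 units in BTBR, against 176, 118 and 121 units in C57BL/6J. With normexp background correction the difference was 0.23 (limma adjusted p = 0.962). In that setting C57BL/6J 1 read -1.68, against -2.87 and -2.84 on the other C57BL/6J arrays and -2.20, -2.08 and -2.41 in BTBR. In the authors' log2 values the difference was 0.27 and passed (adjusted p = 0.0242). Leaving out BTBR 1 gave 0.77 with an adjusted p of 0.0600, and the call held without any other single mouse. Without both BTBR 2 and C57BL/6J 3 the adjusted p was 0.0698.

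Adam17, the protease that sheds fractalkine after stimulation and is also known for releasing tumour necrosis factor, did not pass with either probe. Probe A_52_P337050 (chr12:21330653-21330712, minus strand, from base 3108) read -0.74, -0.43 and -0.88 in BTBR, against -1.23, -1.17 and -0.74 in C57BL/6J. Probe A_52_P734595 (chr12:21330545-21330604, from base 3216) read -0.91, -0.47 and -1.31 in BTBR, against -1.52, -1.27 and -0.90 in C57BL/6J. In both probes the arrays of the strains overlapped. The differences were 0.36 ± 0.19 (interval -0.08 to 0.81, limma adjusted p = 0.411) and 0.33 ± 0.25 (interval -0.28 to 0.95, adjusted p = 0.614). The slides gave opposite signs, 0.61 and 0.71 on the first and -0.14 and -0.41 on the second. The probes start 108 bases apart, so they sample neighbouring sequence, and their strain differences were 0.03 ± 0.13 apart (interval -0.29 to 0.35).

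**Figure D4:**
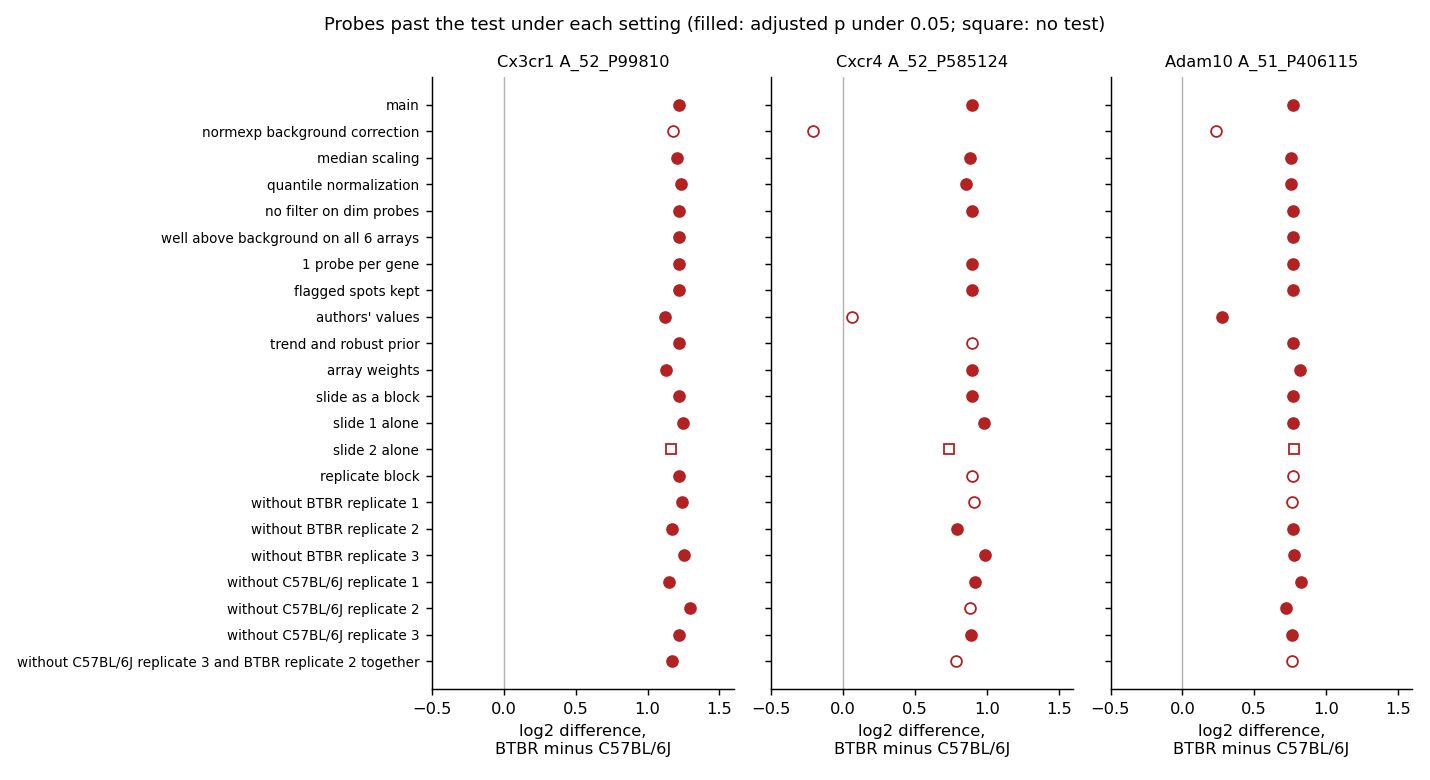
Difference in log2 level between BTBR and C57BL/6J under each setting for the 3 member probes past the test, filled where the adjusted p is under 0.05 and open where it is not, with squares where 1 mouse per strain allowed no test. Cx3cr1 stays between 1.12 and 1.30, Adam10 drops to 0.23 with normexp background correction and 0.27 in the authors' values, and Cxcr4 drops to -0.21 and 0.06 in those settings.

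The other chemokine ligands were compared as a list of 37 genes, of which 20 entered the test. Of these, 1 was higher and 4 were lower in BTBR, 25% called, against 5.29% of all genes (2.03% higher and 3.26% lower). Among the 20, 17 were well above background on all 6 arrays. In the list 5 differences were positive and 15 negative, and the median was -0.20, against 0.01 over all genes. This median was -0.15 on the first slide and -0.85 on the second. Ccl21a, a ligand of CCR7 that directs lymphocytes and dendritic cells, read -2.92, -2.98 and -3.06 in BTBR, against 3.58, 3.62 and 2.61 in C57BL/6J, a 76.5-fold lower signal (-6.26 ± 0.28 SE, limma adjusted p = 0.000122). Ccl21a has near-identical copies in the mouse genome, so its probe may not read a single gene. Ccl19, the other CCR7 ligand, was 2.54-fold lower (-1.34 ± 0.13, adjusted p = 0.00227), and its other probe gave -1.26 (adjusted p = 0.00178). Ccl9, a macrophage chemokine, was 1.91-fold lower (-0.94 ± 0.12, adjusted p = 0.00769). Pf4, platelet factor, named after its values were seen, differed by -0.96 (adjusted p = 0.0222). Ccl24, an eosinophil chemokine, was 1.89-fold higher (0.92 ± 0.15, adjusted p = 0.0200), and its other probe gave 0.93 (adjusted p = 0.0239).

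Of 21 other chemokine receptors listed, 13 entered the test and 0 passed it, where 5.29% of all genes passed, with 10 positive and 3 negative differences and a median of 0.15. Their summed signals went the other way, at 6.10 to 6.32 in BTBR, against 7.64 to 9.32 in C57BL/6J, and did not overlap. The smallest p-values were those of Ackr1, the atypical receptor of venules (-0.65 ± 0.16, adjusted p = 0.0796, other probe -0.37), and Ccr10 (0.77 ± 0.25, adjusted p = 0.182). The unadjusted limma p was 0.00555 for Ackr1 and 0.0204 for Ccr10. On the log2 scale Ackr1 read 2.02, 2.07 and 1.98 in BTBR, against 2.41, 2.63 and 2.97 in C57BL/6J. Ccr10 was well above background on only 4 of 6 arrays, so its size is uncertain.

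**Figure D5:**
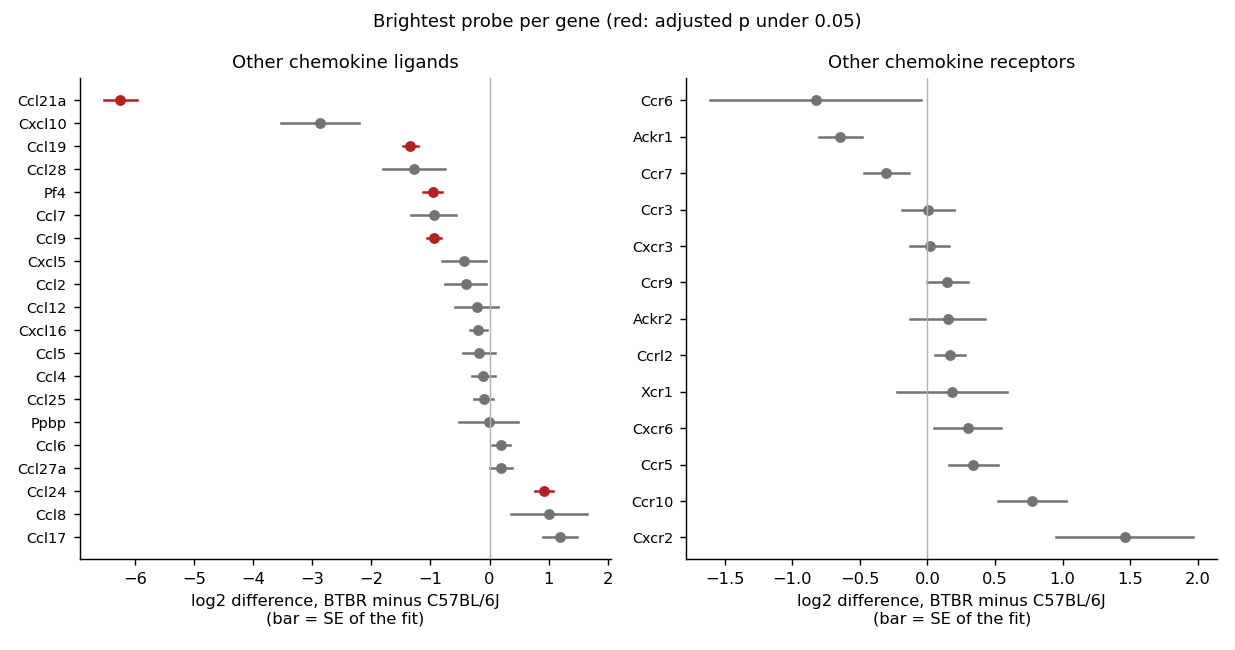
Difference in log2 level between BTBR and C57BL/6J for the tested genes among the other chemokine ligands (left) and receptors (right), each by its brightest probe with the SE of the fit, and red for an adjusted p under 0.05. Ccl21a lies at -6.26, the other lower calls lie between -1.34 and -0.94, and no receptor is red.

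Among genes that act below the receptors or beside the proteases, the shares called were 2.5%, 3.57% and 6.67% in the lists that follow, near the 5.29% of all genes. Of 40 genes of chemokine receptor signalling, 1 was higher and 0 were lower, with a median of -0.00. The 1 was Pik3cg, the phosphoinositide kinase catalytic subunit driven by G protein βγ in leukocytes, at -2.55, -2.54 and -2.81 in BTBR, against -3.85, -3.73 and -3.69 in C57BL/6J, a 2.18-fold higher signal (1.13 ± 0.12 SE, limma adjusted p = 0.00344). Of 28 tested partners of ADAM10 and ADAM17, among them tetraspanins, iRhoms, tissue inhibitors and other sheddases, 1 was higher and 0 were lower, with a median of -0.04. That was Adam19, a related metalloprotease, at -0.87, -0.95 and -0.84 in BTBR, against -2.52, -2.32 and -2.47 in C57BL/6J, a 2.93-fold higher signal (1.55 ± 0.11, adjusted p = 0.000572). Its other probes gave 0.62 (adjusted p = 0.0651) and 0.50 (adjusted p = 0.222). Of 15 alternative ligands, receptors and integrins for these chemokines, 1 was higher and 0 were lower, with a median of -0.03. That was Itga4, the α4 integrin subunit, 2.02-fold higher by one probe (1.01 ± 0.20, adjusted p = 0.0380) and 0.27 by the other (adjusted p = 0.614).

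Other cell classes were read as markers of the tissue's makeup. Over all genes 2.03% were higher and 3.26% lower past the test, 5.29% in all. The shares called were 6.67% of neuron, 16.7% of oligodendrocyte and 10% of astrocyte markers. Of 15 neuron markers 0 were higher and 1 was lower, the neurofilament gene Nefl (-0.60 ± 0.11, adjusted p = 0.0296), with a median of -0.03 and summed signals of 412 to 420 in BTBR, against 410 to 426 in C57BL/6J. Neurons are the main source of fractalkine in brain, and neither their sum nor Cx3cl1 parted the strains. Of 12 oligodendrocyte markers 0 were higher and 2 were lower, and all 12 differences were negative, with a median of -0.42 and sums of 114 to 127 in BTBR, against 152 to 188 in C57BL/6J, which did not overlap. Those lower past the test were the myelin genes Mag (-0.93 ± 0.15, adjusted p = 0.0171, other probe -0.86) and Opalin (-0.90 ± 0.16, adjusted p = 0.0255, other probe -1.12). Of 10 astrocyte markers 1 was lower, the intermediate filament Gfap (-1.21 ± 0.19, adjusted p = 0.0153, other probes -0.46 and -0.57), with a median of 0.01. The part of the lower oligodendrocyte and microglia marker signals in the member results was not tested.

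For each member probe past the test, the genes whose deviations over the 6 arrays lay closest to it were named, by the root mean square difference on the log2 scale over 14408 genes measured on all arrays. Closest to Cx3cr1 A_52_P99810 were Tpmt, a thiopurine methyltransferase (0.0760), Akr1c12, an aldo-keto reductase (0.0878), and Vps39, a vesicle tethering subunit (0.0931), where the median over genes was 0.636. Their strain differences were 1.09, 1.35 and 1.14. Closest to Cxcr4 A_52_P585124 were Gon4l (0.0687), Amy1, an amylase (0.0726), and N4bp1 (0.0820), against a median of 0.488, with strain differences of 0.89, 0.83 and 0.91. Closest to Adam10 were Calhm2 (0.0476), St6galnac4, a sialyltransferase (0.0516), and Coq7, an enzyme of ubiquinone synthesis (0.0670), against a median of 0.419, with differences of 0.80, 0.77 and 0.69. Since the 6 arrays form 2 groups, a gene with a like strain difference lies close by this measure.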

How the data were processed

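RNA of 6 prefrontal cortices was measured on one-colour arrays. The deposited scanner files hold spot intensity on a linear scale, made, per the file headers, by version 10.7.3.1 of Agilent Feature Extraction, while the submitters' processing notes give version 9.1. The authors' series matrix holds log2 values for which the sources used here give no scaling. Against the scanner's log2 signals it correlated at 0.915 to 0.929 per array. Its strain differences had a slope of 0.549 on those of the scanner signals, so they run smaller. It served as an alternative only.

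Log2 processed signals, background-subtracted by the scanner software, were averaged over the spots of a probe, without flagged spots (54 to 107 per array) where another existed, and each array's 75th percentile over non-control probes was subtracted. No probe was saturated. A probe entered when well above background on at least 3 of 6 arrays. The strain difference was fitted by lmFit and eBayes of limma (version 3.58.1, R 4.3.3; files read by the data.table package, release 1.17.8), with Benjamini-Hochberg adjustment over all 30011 probes and a threshold of 0.05. For genes with several probes, the per-array gap between the brightest and each other probe was fitted likewise over 10466 pairs. The scripts were tested on simulated data with the probes' own spread, in which 66 or 67 probes were changed at each size. The fit found 0% of 1.5-fold, 28.4% of 2-fold and 87.9% of 4-fold changes. A probe that did not pass may therefore still differ. The number of arrays limits the precision, and with 3 against 3 an exact permutation test cannot go below p = 0.1.

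Lists used each gene's brightest entered probe. Names came from RefSeq accessions (27816 probes), symbols (5503) or synonyms (380) of GRCm38.p6. The files' own name stayed for 1233 probes, and 6242 were unnamed. Positions are mm9, per the file headers.

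All member probes are named. From each list, up to 4 genes past the test with the smallest p are named, or else the 2 of smallest p. One marker gene of the lists is counted but not reported by name here. The members and lists were chosen with earlier results of these data known. Replicate numbers occur in both strains, but deviations of same-numbered arrays correlated at 0.03, -0.17 and -0.08, so the numbers were not taken to pair mice. Alternatives covered background correction, scaling, probe filters, flagged spots, the prior, array weights, the authors' values, slide and replicate blocks, slides alone and leaving out mice. Normexp background correction started from mean spot signals and added an offset of 50 units, which shrinks log2 differences of dim probes. Its results therefore reflect the offset as well as the correction.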

Additional observations from a re-analysis of the deposited data

How the results depend on the processing

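Over all probes, 1632 passed the test (40.3% of them higher), and 170 did with normexp background correction (25.9% higher, all 170 among the 1632), 938 with 1 probe per gene over 16548 genes, 3928 with array weights (2016 higher and 1912 lower, in a fit that stopped before it converged), 922 with a replicate block and 1008 without BTBR 2 and C57BL/6J 3, an alternative chosen after seeing the data. Slide 1 alone gave 900 higher and 897 lower. Leaving out 1 mouse gave 858 to 1472. Normexp moved the median difference of all probes to -0.09, against 0.04. Of 3 member probes past the test, 0 were left with normexp, 1 with the replicate block, 1 without BTBR 2 and C57BL/6J 3, and 1 to 3 when 1 mouse was left out. Microglia markers past the test went to 0 with normexp, against 5. Probe pairs past the test numbered 618, and 126 with normexp, 376 with the replicate block and 392 to 568 with 1 mouse left out.

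Cx3cr1 A_52_P99810 passed in 19 of 20 tested alternatives (adjusted p from 0.000302 to 0.0616), Adam10 in 16 of 20 (0.00175 to 0.962) and Cxcr4 A_52_P585124 in 12 of 19 (0.00190 to 0.962). With the replicate block their adjusted p were 0.0177, 0.0655 and 0.0593. Adam10 also missed the threshold without BTBR 2 and C57BL/6J 3 (0.0698), as did Cxcr4 (0.0578), and Cxcr4 with a trended, robust prior (0.0887). The Cx3cr1 probe pair passed in 10 of 11 (adjusted p from 0.00173 to 0.489). Differences that turned sign did not pass in the setting where they turned, though Cxcr4 A_52_P585124 had passed in the main setting. With normexp they were -0.26 for Cx3cr1 A_51_P350853, -0.0011 for Cxcl12 A_52_P685021 and -0.21 for Cxcr4 A_52_P585124. On slide 1 alone Cxcr4 A_52_P565353 gave 0.0203, and with 1 mouse left out Cx3cl1 A_51_P205129 gave -0.0255 (without C57BL/6J 2) to 0.218. Slide 2 alone, with no test, gave -0.145 for Cx3cl1 A_51_P205129, -0.145 for Adam17 A_52_P337050 and -0.409 for Adam17 A_52_P734595. The Cx3cl1 pair gave -0.0184 in the authors' values and -0.0639 to 0.122 with 1 mouse left out, and the Adam17 pair -0.0813 to 0.114. Causes were not tested. Signals near background limit the Cxcr4 probes.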

Other observations

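Among the genes named from the marker and pathway lists, 2 had probes with strain differences of opposite sign, each past the test. For Fcrls the brightest probe read -0.45, -0.49 and -0.66 in BTBR, against 0.39, 0.76 and 0.70 in C57BL/6J, while its other probe was higher in BTBR by 1.55 ± 0.14 (SE, limma adjusted p = 0.00198). For Adarb2 the brightest probe read 0.65, 0.89 and 0.80 in BTBR, against -0.03, -0.51 and -0.40 in C57BL/6J, and another probe was lower by 0.82 on the log2 scale (-0.82 ± 0.12, adjusted p = 0.0139). Nefl was lower by both probes, with -0.60 and -1.77 (adjusted p = 0.0296 and 0.00135). What sets such probes apart was not tested.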
